A study of Homo sapiens with 6 samples.

Results

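Basigin (BSG), a membrane glycoprotein that escorts lactate transporters to the cell surface, was examined in RNA-seq of A549 cells together with 6 genes of lactate transport and lactate formation, namely EMB, SLC16A1, SLC16A3, SLC16A7, LDHA and LDHB. The 7 genes were picked by symbol from the 26485 gene symbols counted in every library, and all 7 had at least 10 counts in at least 3 libraries, the filter used for testing. BSG was lower with sgRNA #2 in the comparison described here, so values of that same contrast chose the genes, and the difference in BSG is given as a description and not as a test. The other 6 are its transport partners and the enzymes that make or use lactate.

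A549 is a human lung adenocarcinoma line. All 6 libraries came from A549 cells infected with lentiviral vectors for dCas9-KRAB (a nuclease-dead Cas9 joined to KRAB, a domain that represses transcription, selected with puromycin) and for rat Nkx2-1 (selected by sorting for GFP), so the controls carry both as well, in a line that lacks endogenous NKX2-1. In the sgRNA #2 group (3 libraries), cells received a synthetic guide RNA to the first intron of SFTPB, the surfactant protein B gene. In the sgRNA control group (3 libraries), they received a non-targeting guide RNA, and the comparison asks which genes besides SFTPB differ when that intron is targeted.

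The libraries held 6047554 to 7584611 reads on genes. The targeted gene, SFTPB, was read 2683, 2877 and 3155 times with the sgRNA control and 40, 42 and 49 times with sgRNA #2. Of 5 epithelial markers, KRT8, KRT18, CDH1 and EPCAM passed the count filter while KRT19 had 0 to 4 counts, and their summed level was 2372 to 2959 CPM with the sgRNA control and 2178 to 2677 CPM with sgRNA #2, where CPM are counts set relative to the total of their library. CDH1 (E-cadherin) was lower with sgRNA #2 (log2 fold change of -0.34 over the sgRNA control, abbreviated log2FC from here on, with SE 0.0669 and adjusted p = 0.00728 in the edgeR quasi-likelihood fit), which moved alongside BSG, and its part in the results below was not tested. The leukocyte markers PTPRC and CD3E, the endothelial marker CDH5 and the fibroblast markers COL1A2 and DCN had 0 counts in all 6 libraries, the leukocyte marker CD14 had 12 to 22 counts per library and overlapping groups, and the endothelial and the fibroblast markers each summed to at most 9.87 CPM. The fibroblast marker COL1A1 passed the count filter, with 36 to 58 counts per library and overlapping groups, and the fibroblast marker LUM had 0 to 7 counts.

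Cells that make ATP by glycolysis turn pyruvate into lactate with lactate dehydrogenase and export lactate together with a proton through monocarboxylate transporters (MCTs). MCT1 (SLC16A1) and MCT4 (SLC16A3) need basigin, also known as CD147 or EMMPRIN, to fold, leave the endoplasmic reticulum and work at the plasma membrane, whereas MCT2 (SLC16A7) prefers embigin (EMB). LDHA is the main subunit of the muscle-type dehydrogenase, which is usually linked to lactate formation, and LDHB that of the heart-type enzyme.

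The target of sgRNA #2 and its closest matches near the start sites of these genes are shown because BSG is not the gene the guide was designed for. Each line runs 5′ to 3′ and ends with the 3-base PAM. In the guide target the capitals mark the 10 bases next to the PAM, and in the other lines they mark the unbroken run of bases next to the PAM that equals the guide target.
sgRNA #2 target: gggatgggagGGGAACACCCagg
BSG: aagagtctgggaGAACACCCggg
SLC16A3: tcttgactggcccAACACCCagg

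The guide target lies in SFTPB at chr2:85668529-85668551 (GRCh38, minus strand), in the first intron of 2 of the 7 SFTPB transcripts of GENCODE release 44, and at -341 bp from the canonical start.
Within 1000 bp of any annotated start site and before an NGG on either strand, the longest run in BSG was 8 bases. The site lies at chr19:573522-573544 (GRCh38, minus strand), 898 bp downstream of the nearest annotated start, in an intron of 16 of the 21 BSG transcripts of GENCODE release 44 and outside the other 5. It differs from the guide at 8 of the 20 bases. A run of 8 or more bases was found in 197 of 13081 tested genes with an annotated start (1.51%). SLC16A3 had a run of 7 bases at chr17:82229811-82229833 (minus strand), with 12 mismatches, and 5.51% of the tested genes had a run as long. EMB, SLC16A1, SLC16A7, LDHA and LDHB had no run of 6 or more within 1000 bp. Genes with more annotated starts had more sequence searched, and the shares given here are not matched for that. The members have from 5 (EMB) to 19 (SLC16A3) different starts, with 16 in BSG and 14 in LDHA. A match of this kind is a description of sequence and says nothing on binding. When the window was narrowed to 500 bp, the longest run in BSG was 6 bases, and 16.4% of the tested genes had one as long. SLC16A3 had none of 6 or more in that window. Within 2000 bp LDHB had a run of 7 bases (8.49% of the tested genes had one as long) and SLC16A1 one of 6 (33.3%).

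BSG lies on chromosome 19 from 571277 to 583494 on the plus strand, with 16 different annotated starts. RefSeq (GRCh38.p14) lists 2 promoter windows for it, and the window of the canonical start, 572596, holds the E-box CACGTG. Its part before the first GENCODE start within that window, chr19:572346-572528 (plus strand), is shown with the E-box in capitals.
BSG upstream: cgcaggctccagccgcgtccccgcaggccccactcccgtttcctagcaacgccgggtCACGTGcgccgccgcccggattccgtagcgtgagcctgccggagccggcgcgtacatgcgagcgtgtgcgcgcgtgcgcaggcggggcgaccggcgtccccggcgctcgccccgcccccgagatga

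CACGTG reads the same on both strands, and 7.26% of 35116 RefSeq promoter windows of 300 bases hold it. Of the members' 12 windows, an LDHA window (chr11:18394313-18394612) holds it as well, 2 times. The letters CAAG, the core of the sequence that NKX2-1 binds, searched on both strands as CAAG and CTTG, are not in the BSG window of the canonical start but occur 3 times in the upstream one (chr19:571033-571332), and 86.0% of all windows hold them. EMB and SLC16A1 are named only, without a window.

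BSG counts were 3117, 3744 and 3969 with the sgRNA control and 1727, 1700 and 1617 with sgRNA #2. Scaled to library size with TMM factors, these are 496, 531 and 522 CPM (mean 516 ± 17.7, SD, n = 3) against 246, 255 and 269 CPM (257 ± 11.9, n = 3). Each sgRNA #2 library lay below each control library, and the spread within a group was small beside the gap. Its log2FC was -1.01 (SE 0.064, 95% interval -1.14 to -0.87), so that BSG stood at 49.7% of its control level. In same-numbered pairs of libraries the log2 differences were -1.01, -1.06 and -0.95. In these bulk samples, fewer cells that express a gene and less RNA per cell cannot be told apart.

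BSG sat at the edge of the rule that called it (a log2FC of at least 1 in size with a Benjamini-Hochberg adjusted p under 0.05). Of 13356 tested genes, 92 were called lower (0.689%), and by log2FC BSG was number 91 of these, although by level it was number 1, with more control counts than any other gene called lower. Among genes that passed the adjusted p cut-off, 12 had a log2FC from -1.1 to -1.0 and 21 lay just outside, from -1.0 to -0.9. BSG fell outside the call without replicate 1 of sgRNA #2 (log2FC -0.97) and without replicate 2 of the sgRNA control (-0.99), since the fold change cut-off was then missed, and in edgeR's test of a change above 2-fold. In GENCODE the lncRNA gene BSG-AS1 overlaps BSG on the other strand, and the strand setting of the counting is not given in the sources used here, so reads of the pair cannot be told apart.

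**Figure D1:**
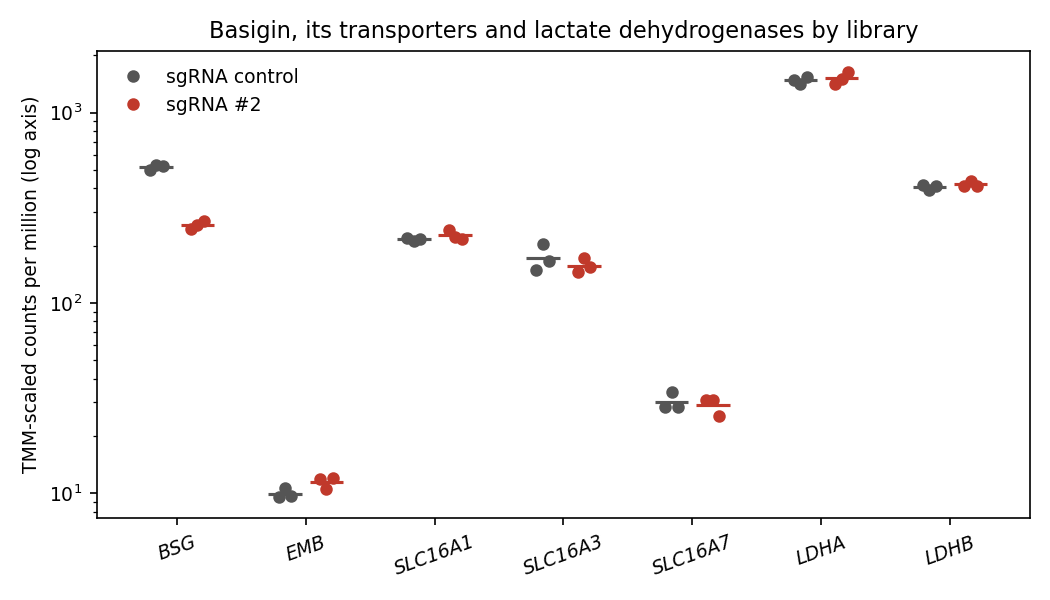
TMM-scaled CPM (log axis) of the 7 genes in each of the 6 libraries, with sgRNA control in grey, sgRNA #2 in red, a dot per library and a line at the group mean. BSG is the gene whose groups are apart, at 496 to 531 CPM against 246 to 269 CPM, and the dots of the other 6 genes overlap between groups.

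The 3 lactate transporters that pair with basigin or embigin were at similar levels in both groups. SLC16A1, which encodes MCT1, a transporter for uptake and release of lactate, had 1374, 1488 and 1644 counts with the sgRNA control and 1688, 1483 and 1293 with sgRNA #2 (215 ± 4.05 against 226 ± 12.7 CPM, SD, n = 3 each). Its log2FC was 0.07 (SE 0.0643, 95% interval -0.06 to 0.21, adjusted p = 0.778 in edgeR), and the groups overlapped. SLC16A3 encodes MCT4, the exporter of glycolytic cells, and was the most variable of the well-covered members.

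SLC16A3 had 939, 1440 and 1256 counts with the sgRNA control and 1016, 1152 and 922 with sgRNA #2. Replicate 2 was the highest library in both groups, and the CPM were 173 ± 28.1 against 157 ± 14.6 (SD, n = 3 each). The log2FC was -0.14 (SE 0.0964, 95% interval -0.34 to 0.06, adjusted p = 0.677 in edgeR). With the replicate number as a block in edgeR it was -0.14 as well, with adjusted p = 0.056, so the p-value depends on the model. The pairs differed by -0.05, -0.24 and -0.10, lower in 3 of 3. Single libraries moved the value, which was -0.23 without replicate 1 and -0.0 without replicate 2 of the sgRNA control, and -0.08 without replicate 1 and -0.22 without replicate 2 of sgRNA #2. In GENCODE the protein-coding gene CSNK1D overlaps SLC16A3 on the other strand.

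SLC16A7 encodes MCT2, a high-affinity transporter, and was far less abundant. It had 178, 239 and 217 counts with the sgRNA control and 217, 205 and 152 with sgRNA #2, and the groups overlapped. The log2FC was -0.06 (SE 0.113, 95% interval -0.3 to 0.18, adjusted p = 0.918 in edgeR). Its sign was not stable, with 0.03 without replicate 2 of the sgRNA control or without replicate 3 of sgRNA #2.

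EMB (embigin), the relative of basigin that can also carry MCTs, was the least abundant member by counts. It had 60, 75 and 73 counts with the sgRNA control and 84, 70 and 72 with sgRNA #2 (9.93 ± 0.607 against 11.5 ± 0.842 CPM, SD, n = 3 each). The lowest sgRNA #2 library lay within the control range. The log2FC was 0.21, with a SE of 0.151 and a 95% interval of -0.11 to 0.53 (adjusted p = 0.7 in edgeR), so at this depth an increase of that size could be neither shown nor bounded closely. NPTN (neuroplastin), the third gene of the basigin family, had 1207, 1219 and 1544 counts with the sgRNA control and 1293, 1137 and 1263 with sgRNA #2. Its log2FC was -0.01 (adjusted p = 0.988 in edgeR), and over the alternatives it stayed between -0.09 and 0.06.

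Both lactate dehydrogenase subunits were high and close in the groups. LDHA had 9273, 9991 and 11658 counts with the sgRNA control and 9878, 10055 and 9812 with sgRNA #2 (1475 ± 58.5 against 1517 ± 115 CPM, SD, n = 3 each). Its log2FC was 0.04 (SE 0.0696, 95% interval -0.11 to 0.19, adjusted p = 0.907 in edgeR), and -0.02 without replicate 3 of sgRNA #2. That library was the highest of the 6 in LDHA CPM, and the groups overlapped.

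LDHB had 2620, 2781 and 3112 counts with the sgRNA control and 2875, 2924 and 2461 with sgRNA #2. Its log2FC was 0.04 (SE 0.0622, 95% interval -0.09 to 0.18, adjusted p = 0.879 in edgeR), with overlapping groups. Of the 6 members besides BSG, 0 were called, 0 had an adjusted p under 0.05 and 0 had an unadjusted p under 0.05 in edgeR, and DESeq2 gave 0 with an adjusted p under 0.05. Among all 13356 tested genes, 1488 had an unadjusted p under 0.05 and in 15.6% the groups did not overlap, so a count of 0 among 6 genes is near that background. The groups overlapped in each of the 6. Their 95% intervals lay within -0.34 to 0.53, which leaves out a change in either direction of the size seen in BSG, and smaller changes remain possible.

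A ratio of counts within a library does not depend on scaling between libraries. The log2 ratio of LDHA to LDHB counts was 1.82, 1.84 and 1.91 with the sgRNA control and 1.78, 1.78 and 2.00 with sgRNA #2. The sgRNA #2 libraries lay on both sides of the control values, and the mean difference was -0.01 (two-sided exact permutation test, p = 1.0, n = 3 per group, where the smallest p that this design allows is 0.1). The log2 ratio of SLC16A3 to SLC16A1 counts was -0.55, -0.05 and -0.39 with the sgRNA control and -0.73, -0.36 and -0.49 with sgRNA #2. The mean difference was -0.2 and the groups overlapped (two-sided exact permutation test, p = 0.5, n = 3 per group). The ratio was lower with sgRNA #2 in 3 of 3 same-numbered pairs (exact sign-flip test, p = 0.25, the smallest that 3 pairs allow). These 2 ratios were the only ones computed.

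Levels were compared between genes per length, as TPM, in which counts are divided by the merged exon length of the gene and scaled to the same total in every library. In the sgRNA control libraries the order was LDHA at 1115 ± 48.6 TPM, LDHB at 621 ± 19.5, BSG at 532 ± 18.0, SLC16A1 at 154 ± 3.3, SLC16A3 at 85.2 ± 13.6, SLC16A7 at 10.1 ± 1.01 and EMB at 8.63 ± 0.5 (SD, n = 3). The ranges of neighbours in this order did not overlap. With the longest transcript as the length the order was the same, but LDHA stood at 2212 ± 93.9 TPM, LDHB at 889 ± 27.5 and BSG at 750 ± 25.0, and the ranges of SLC16A7 and EMB overlapped, so that sizes of differences between genes depend on the length used. Of the 3 transporter genes, those of MCT1 and MCT4 thus had the higher transcript levels, and the MCT2 gene and that of its partner embigin were both far lower.

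With sgRNA #2 the first 5 genes kept their order, with BSG at 268 ± 11 TPM, still above SLC16A1 at 164 ± 9.85. EMB at 10.1 ± 0.693 TPM and SLC16A7 at 9.75 ± 1.13 stood in the reverse order, with overlapping ranges. Set against the summed TPM of SLC16A1, SLC16A3 and SLC16A7, BSG stood at 2.13, 2.08 and 2.19 with the sgRNA control and at 0.998, 1.03 and 1.16 with sgRNA #2. With the longest transcript as the length, these values were 2.57, 2.46 and 2.62 against 1.21, 1.24 and 1.4, and on either length the shift follows from the lower BSG level. LDHA made up 64.2 ± 0.675% of LDHA and LDHB TPM in the control and 64.1 ± 1.96% with sgRNA #2.

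**Figure D2:**
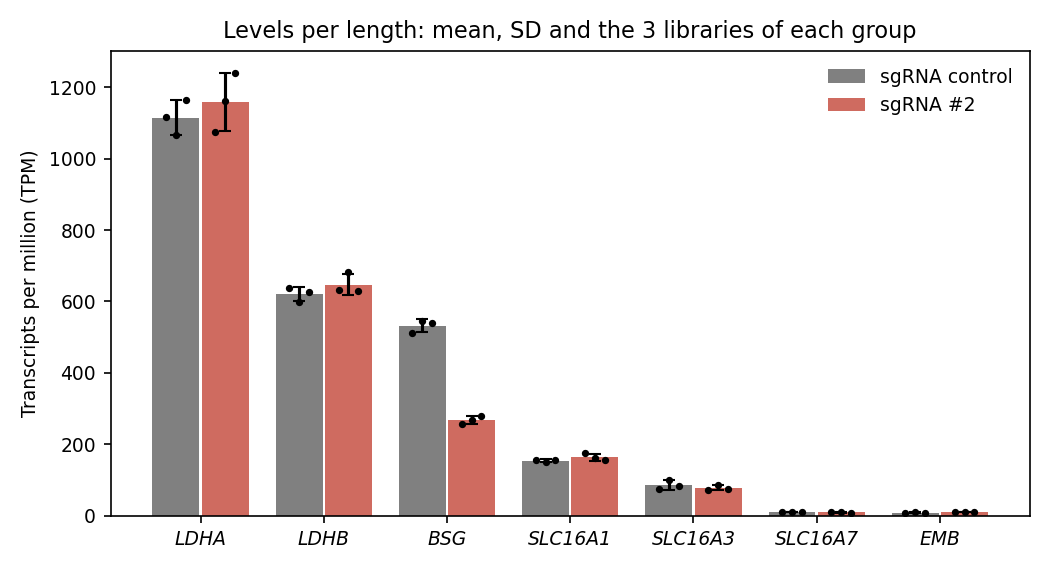
TPM of the 7 genes, ordered by the sgRNA control level, with bars at the mean, error bars of 1 SD and a dot for each of the 3 libraries of a group. BSG comes after LDHA and LDHB in both groups, at 532 and 268 TPM, and before SLC16A1.

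The members were then set among the other genes of these pathways, in 8 lists that hold 91 genes, 74 of which were tested. Of the 74, 1 was called (BSG, lower, which was chosen from this contrast). Of the 67 tested list genes that are not members, 0 were called in edgeR, 1 (PDK4) passed the adjusted p cut-off alone, against 2.69% of all tested genes, and 11 had an unadjusted p under 0.05. Among all 13356 tested genes, 1488 had an unadjusted p under 0.05. DESeq2 gave 3 of the 74 an adjusted p under 0.05, namely BSG, PDK4 and ITGA3. The median log2FC was 0.03 over the 74 and 0.0 over all tested genes. In 8 of the 67 the groups did not overlap, against 15.6% of all tested genes. With the replicate number as a block, 13 of the 74 passed the adjusted p cut-off (7 lower and 6 higher), against 10.0% of all tested genes. BSG, chosen from this contrast, is among the 7 lower and adds to that share. The block fit gives much smaller p-values, and values that bear on this are in the last section.

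PDK4, a kinase that inhibits pyruvate dehydrogenase and so holds pyruvate back from mitochondrial oxidation, was higher with sgRNA #2. It had 291, 391 and 400 counts with the sgRNA control and 486, 540 and 462 with sgRNA #2 (51.4 ± 4.64 against 75.7 ± 6.08 CPM, SD, n = 3 each). The groups did not overlap, and the log2FC was 0.55 (SE 0.0878, adjusted p = 9.87e-04 in edgeR), a rise to 147.2% of the control level that was under the fold change cut-off. Leaving out a library gave log2FC values of 0.49 to 0.62. Of the 14 genes of pyruvate entry into mitochondria, all tested, PDK4 was the 1 that passed the adjusted p cut-off, in edgeR and in DESeq2, 2 had an unadjusted p under 0.05, and the median log2FC was 0.1. The most abundant of them, MPC2, a subunit of the mitochondrial pyruvate carrier, and DLD, the dihydrolipoamide dehydrogenase subunit, had log2FC values of -0.13 (adjusted p = 0.589 in edgeR) and 0.08 (adjusted p = 0.757 in edgeR). With the block 3 of the 14 passed, namely PDK4 (0.56), PC (0.23) and PDK3 (-0.2).

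Of 28 genes of glucose uptake and glycolysis, 22 were tested, 0 passed the adjusted p cut-off in edgeR or in DESeq2 and 4 had an unadjusted p under 0.05, with a median log2FC of 0.02 and a range of -0.21 to 0.28. GAPDH and ENO1, the most abundant of them, are the dehydrogenase and the enolase of the lower part of glycolysis. GAPDH had 11435, 13099 and 13881 counts with the sgRNA control and 12648, 12014 and 11972 with sgRNA #2, a log2FC of 0.02 (SE 0.0656, adjusted p = 0.939 in edgeR). ENO1 had a log2FC of -0.01 (SE 0.0678, adjusted p = 0.979 in edgeR). With the block 4 genes passed, HK2 (0.27) and ENO2 (0.2) higher and GPI (-0.21) and PFKFB3 (-0.2) lower, so that no one direction was seen.

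Of 16 monocarboxylate transporters of the SLC16 and SLC5 families, 12 were tested and 0 passed the adjusted p cut-off in edgeR, in DESeq2 or with the block, while 1 had an unadjusted p under 0.05. Their log2FC values ran from -0.38 to 0.44 with a median of 0.02. SLC16A1 and SLC16A4 had the highest control levels, at 154 and 141 TPM, and SLC16A4 had a log2FC of 0.05 (adjusted p = 0.909 in edgeR). Of the 6 lactate dehydrogenase genes 3 were tested, and LDHD, the gene of D-lactate dehydrogenase, had 8 to 19 counts per library.

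Basigin also has ligands as well as partners in the membrane, and the partners include the amino acid transporter SLC7A5 and caveolin-1 (CAV1). All 12 genes of the list of ligands and partners were tested and 0 passed the adjusted p cut-off in edgeR. Of these, 2 had an unadjusted p under 0.05, and the median log2FC was 0.03. SLC7A5 had 10710, 12577 and 11667 counts with the sgRNA control and 12801, 12402 and 10009 with sgRNA #2, and a log2FC of 0.09 (adjusted p = 0.733 in edgeR). CAV1 had one of -0.04 (adjusted p = 0.919 in edgeR). ITGA3, the alpha subunit of a laminin-binding integrin, was picked after its values were seen. It had a log2FC of -0.24 (adjusted p = 0.0658 in edgeR), with adjusted p = 0.0397 in DESeq2 and 1.29e-06 with the block. ITGA3 passed in 3 of 13 alternatives, and in 0 of the 6 that left out a library (adjusted p 0.0737 to 0.299 in edgeR). With the block ITGB1 (-0.16) and SLC1A5 (0.15) passed as well.

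Basigin was first named as an inducer of matrix metalloproteinases. Of 5 such genes 2 were tested, and neither passed the adjusted p cut-off nor had an unadjusted p under 0.05, in edgeR or, for the adjusted value, in DESeq2. MMP2 (gelatinase A) had 208, 249 and 303 counts with the sgRNA control and 311, 264 and 211 with sgRNA #2, with overlapping groups and a log2FC of 0.14 (adjusted p = 0.724 in edgeR). MMP14, a membrane-bound metalloproteinase, had 16 to 23 counts per library and a log2FC of 0.06 (adjusted p = 0.967 in edgeR).

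Lactate leaves the cell with a proton, and carbonic anhydrases at the cell surface handle that proton. Of 7 genes of proton handling and lactate sensing 6 were tested, 0 passed the adjusted p cut-off in edgeR or DESeq2 and 2 had an unadjusted p under 0.05. CA12 had 6868, 8756 and 9719 counts with the sgRNA control and 7509, 7939 and 7497 with sgRNA #2, with a log2FC of -0.04 (adjusted p = 0.91 in edgeR). CA9 had 231, 401 and 399 counts with the sgRNA control and 207, 313 and 215 with sgRNA #2, overlapping groups and a log2FC of -0.39 (SE 0.155, adjusted p = 0.305 in edgeR). With the block CA9 passed, at -0.38 (adjusted p = 4.12e-05), and so did the bicarbonate transporter SLC4A7, at 0.18 (adjusted p = 0.0119).

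**Figure D3:**
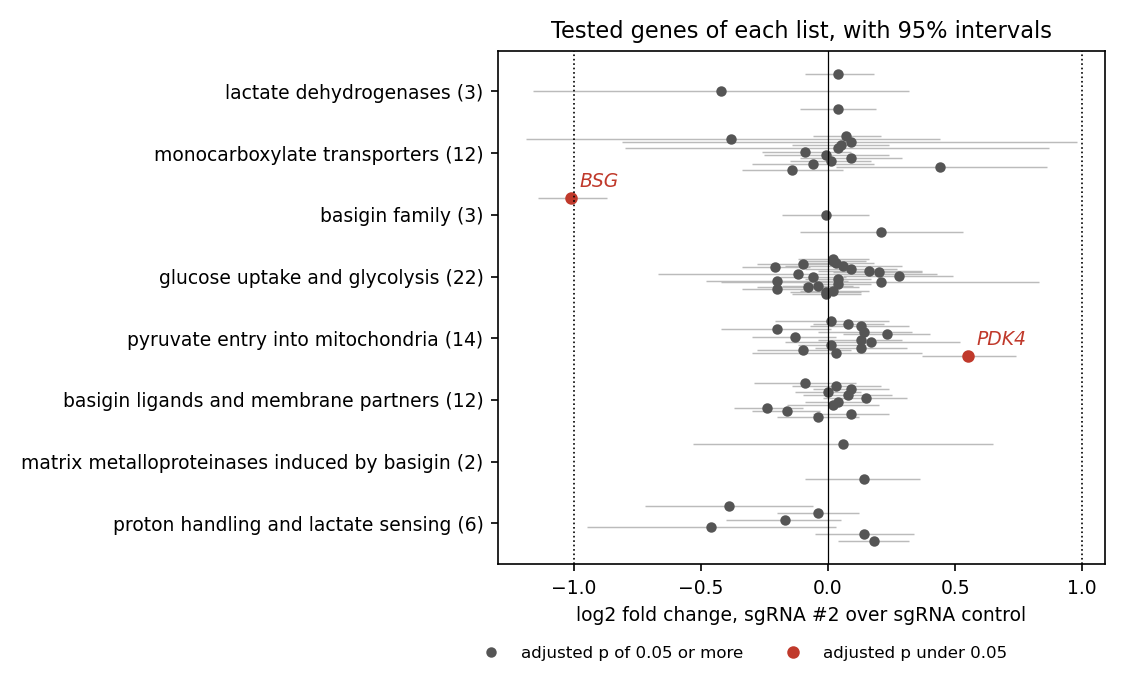
The log2 fold change of each of the 74 tested genes (dots) with its 95% interval (lines), grouped by list with the number tested in brackets and a dotted line at a log2FC of 1 in either direction. BSG at -1.01 and PDK4 at 0.55 (red) passed the adjusted p cut-off, and the dots of the other genes lie between -0.46 and 0.44.

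Genes around BSG were read for a change shared along the chromosome. Of 14 annotated genes that start within 100 kb of the canonical BSG start, 9 were in the count tables and 5 were tested, of which 0 passed the adjusted p cut-off in edgeR or DESeq2. HCN2, a pacemaker channel gene that starts 17285 bp downstream, had 102, 116 and 107 counts with the sgRNA control and 73, 87 and 66 with sgRNA #2, and the groups did not overlap. Its log2FC was -0.44 (SE 0.145, adjusted p = 0.172 in edgeR, and 0.0143 with the block). Among all tested genes, 10.0% passed the adjusted p cut-off with the block, and in 15.6% the groups did not overlap.

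TPGS1, a subunit of the tubulin polyglutamylase complex with its start at -65099 bp from that of BSG, had 130, 141 and 141 counts with the sgRNA control and 133, 101 and 59 with sgRNA #2. The groups overlapped, and its log2FC was -0.41 (SE 0.171, adjusted p = 0.33 in edgeR, and 0.00498 with the block). It was -0.64 without replicate 1 of sgRNA #2 and -0.21 without replicate 3 of sgRNA #2. CDC34, a ubiquitin-conjugating enzyme that starts between TPGS1 and BSG, had a log2FC of -0.03 (95% interval -0.2 to 0.14). POLRMT, the mitochondrial RNA polymerase, and RNF126, a ubiquitin ligase, start downstream of HCN2 and had log2FC values of -0.05 and 0.06. ODF3L2, MADCAM1, GZMM and FGF22 had 0 to 4 counts per library and were not tested.

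**Figure D4:**
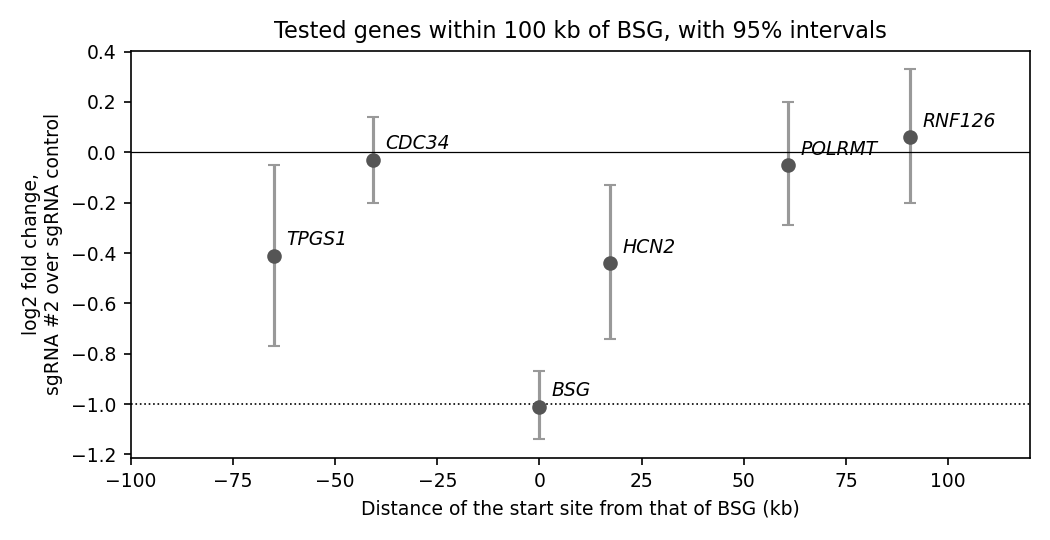
The log2 fold change of BSG and of the 5 tested genes within 100 kb, with 95% intervals, against the distance of their start from that of BSG in kb. BSG is at -1.01, HCN2 at -0.44 and TPGS1 at -0.41, while CDC34, which lies between TPGS1 and BSG, is at -0.03.

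The genes whose profile over the 6 libraries was most like that of BSG were HNF4A, BBS10, FGFR1, KREMEN1 and C10orf35. Likeness was measured as the root mean square distance between log2 CPM profiles, each centred on its own mean, over the 6 libraries, and these 5 of 13355 other tested genes had distances of 0.0475 to 0.082. HNF4A, a transcription factor of liver and gut epithelium, had 670, 785 and 843 counts with the sgRNA control and 367, 330 and 339 with sgRNA #2, and a log2FC of -1.06. BBS10, a chaperonin-like gene of the primary cilium, had one of -1.05. FGFR1, a fibroblast growth factor receptor, had one of -0.92, KREMEN1, a receptor for Dickkopf proteins, one of -0.92, and C10orf35 one of -0.96. These values follow from the measure, since a gene near BSG by this distance had to fall to a like extent. The other 6 members stood at distances of 0.458 (SLC16A3) to 0.61 (EMB).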

How the data were processed

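RNA was extracted with TRIzol from A549 cells, and the deposited values are raw read counts per gene symbol, without normalization. The submitters' processing notes name Trim Galore, FastQC, Bowtie2 2.3.3.1, SAMtools, Picard, HTSeq and hg38. The annotation and the strand setting of the counting are not given in the sources used here, so overlapping and antisense genes are uncertain. Each library's group and number were read from its label, and the replicates were described as biologically independent. Reads that no gene took (outside genes or ambiguous, 22.4 to 23.8% of those counted) were left out. Total counts on genes were 6341459, 7068999 and 7584611 (sgRNA control) and 7058274, 6598372 and 6047554 (sgRNA #2). Libraries of a group differed by more than sampling noise (chi-square per degree of freedom 2.73 to 3.61).

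The main test was edgeR 4.0.16 (R 4.3.3), with TMM factors and quasi-likelihood F tests of the 13356 genes in which 3 or more libraries reached 10 counts, with Benjamini-Hochberg adjustment over all of them. The standard error is the size of the log2 fold change divided by the square root of F, and the 95% interval uses the test's degrees of freedom. On simulated counts for these genes the main test recovered 195 of 200 changed genes with 0 false calls. Recovery of genes near the fold change cut-off, where BSG lies, was not tested separately. Alternatives were RLE factors, library totals, no count filter, 10 counts in every library, DESeq2 1.42.0, edgeR's glmTreat, the replicate block, the adjusted p alone and leaving out each library. Same-numbered libraries deviated together from their group means (correlations 0.269, 0.287 and 0.291). The numbers, which come from the labels, were therefore taken as pairs in the replicate block, the pair differences and the sign-flip test. The main test did not use this pairing.

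TPM used GENCODE 44 exon lengths over matched symbols (23161 by the same symbol and 1347 by an older one, of 26485). The sgRNA sequence is from the study's supplement and promoters from RefSeq. Ratios used a pseudocount of 0.5 counts and scipy 1.17.1. Members, lists and tests were chosen with earlier results of these data known. Genes named are the 7 members, list genes with an adjusted p under 0.05, the 2 highest of each list by control TPM, genes starting within 100 kb of BSG, the 5 nearest profiles and SFTPB, with cell type markers. LDHD, ITGA3 and the genes that passed with the block were named after their values were seen. Part of what the marker lists hold is not reported here.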

Additional observations from a re-analysis of the deposited data

How the results depend on the processing

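Under the alternatives, 96 called genes became 63 with at least 10 counts in every library, 27 with glmTreat (a test of a change above 2-fold) and 359 by the adjusted p alone, and 65 to 94 when a library was left out. With glmTreat the count of members called went from 1 to 0 and that of list genes from 1 to 0, since BSG, at -1.01, had an adjusted p of 1.0 against a change of 2-fold. By the adjusted p alone 2 list genes passed. When a library was left out, BSG ran from -1.04 to -0.97, and the count of members called and of list genes called from 0 to 1. The calls lost were those without replicate 1 of sgRNA #2 (-0.97) and without replicate 2 of the sgRNA control (-0.99), where the fold change missed the cut-off. The replicate block left BSG at -1.01 and called 122 genes, and the count of members called and of list genes called stayed at 1. The list genes, HCN2 and TPGS1 that passed only with the block did so by the adjusted p alone, under the fold change cut-off. That fit had an infinite prior degrees of freedom against 13 without the block, so its p-values rest on the dispersion trend and are much smaller.

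The other 6 members gave 78 values, from -0.23 to 0.27, of which 0 were called and 3 reversed in sign, namely SLC16A7 (0.03 without replicate 2 of the sgRNA control and 0.03 without replicate 3 of sgRNA #2) and LDHA (-0.02 without replicate 3 of sgRNA #2). When a library was left out, SLC16A7 ran from -0.1 to 0.03 and LDHA from -0.02 to 0.1. The LDHA to LDHB difference ran from -0.08 to 0.03 and the SLC16A3 to SLC16A1 difference from -0.31 to -0.06 when a library was left out. The longest run of bases shared with the guide in BSG was 6 instead of 8 within 500 bp. With the longest transcript as the length, control TPM became 749.8 for BSG, 2212.4 for LDHA, 889.0 for LDHB, 165.4 for SLC16A1, 120.3 for SLC16A3, 8.52 for SLC16A7 and 7.94 for EMB. SLC16A3 ran from -0.23 to -0.0 and TPGS1 from -0.64 to -0.21 when a library was left out. EMB, with 60 to 84 counts per library, is the member whose precision depth limits most.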
